A study of Oryza sativa with 8 samples.

Results

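Expansins are a family of secreted plant proteins, and 38 rice genes of that family were measured here in 3 cytoplasmic male sterile (CMS) lines and their fertile maintainer. The members were the genes whose symbol or synonym in the RefSeq rice annotation is EXPA, EXPB, EXLA or EXLB with a number and that had an array probe lying in no other gene. Such a probe was found for 38 of the 49 expansin genes in the annotation, with 1 probe each, among 14661 genes measured in the same way. They were 22 of 29 alpha-expansins (EXPA), 12 of 15 beta-expansins (EXPB), 3 of 4 expansin-like A genes (EXLA) and the single expansin-like B gene (EXLB1). EXPA9, EXPA15, EXPA17, EXPA19, EXPA20, EXPA25, EXPA29, EXPB11, EXPB17 and EXLA4 had no probe assigned here, and EXPB15 had only a probe shared with another gene.

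The CMS lines were D62A (cytoplasm of the D type), ZhenShan97A (WA type) and XQZ-A (DA type). Their reference was Meixiang B, the fertile line whose nuclear background all 3 CMS lines carry, and each of the 4 lines was measured on 2 arrays, 8 arrays in all. The methods describe repeated backcrossing to Meixiang B that left part of the donor nuclear genome in place, the most in ZhenShan97A and the least in the line they name XQZ-A, so cytoplasm and remaining donor nuclear genes cannot be told apart. According to the methods the replicates are biological, so each line is known only from 2 samples. Total RNA was hybridized to an Affymetrix rice gene array, and the values are linear signal intensities.

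Cautions about the material come before the results. The sample labels give the tissue as young panicle at the uninucleate microspore stage, whereas the methods of the study speak of anthers. The tables of the study carry the intensities of the arrays labelled D62A under the name of the XQZ-A line, and those labelled XQZ-A under the name of the D62A line. Which naming is right is not known, and the lines are called here as the sample labels call them. The arrays of replicate 2 were brighter, with medians of 19.2 to 20.6 against 7.65 to 8.15 for replicate 1, and 42.5% to 65.2% of the probes of an array lay at or below an intensity of 16. Lower signal may reflect fewer cells of a type or less RNA per cell, which bulk tissue cannot tell apart.

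Expansins loosen plant cell walls without hydrolysing wall polymers. They allow cellulose microfibrils and the matrix around them to slide under turgor, most readily at acid pH, and so permit cells to enlarge. Alpha-expansins are the classical mediators of acid growth, and the beta-expansins of grasses include the group-1 pollen allergens, which are shed in large amounts by grass pollen and soften the walls of the stigma and style. EXLA and EXLB proteins share the fold of the family, but no wall-loosening activity has been established for them. In the anther, cell walls yield as the filament and the locule enlarge.

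Many expansins were weakly detected. Of the 38 members, 8 exceeded 16 on all 8 arrays, 22 on some arrays and 8 on none. For testing, intensities under 16 were set to 16 and converted to log2, and limma was fitted to the 20416 brighter probes of the 40832 on the array. Each fit had a term for each line and the replicate number as a block, and 24 of the 38 members (13 EXPA, 8 EXPB and 3 EXLA) entered it. A member was called at a Benjamini-Hochberg adjusted p under 0.01, taken over all fitted probes, with a change of at least 2-fold. Fold changes are log2 values of the CMS line over Meixiang B with their standard error (SE). The 3 comparisons with Meixiang B and their mean share the same 2 Meixiang B arrays, so they are given side by side and not as separate evidence.

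Alpha-expansins made up most of the calls, and they were also 13 of the 24 fitted members. EXPA2, EXPA4, EXPA5 and EXPA7 fell in ZhenShan97A, EXPA2 and EXPA5 fell in XQZ-A, and EXPA2, EXPA5 and EXPA7 fell in the mean of the 3 CMS lines against Meixiang B (the CMS mean). With the beta-expansin EXPB4, which also fell in ZhenShan97A, that gave 5 of 24 members lower in ZhenShan97A, 2 of 24 in XQZ-A and 3 of 24 in the CMS mean. Among all fitted probes, 0.779%, 1.75% and 1.43% were called lower in those comparisons. D62A had 0 members called by limma, with 0.0294% of all probes called lower, and 6 members were below Meixiang B at an unadjusted p under 0.05, as 9.28% of all fitted probes were. Only 6 probes were called in D62A, and that number moved to between 0 and 148 when 1 array was left out (148 without replicate 1 of D62A). No member was called higher in any line, where 0.0% (D62A), 0.852% (ZhenShan97A), 0.309% (XQZ-A) and 0.372% (mean) of all probes were. At a looser limit, an adjusted p under 0.05 with a 2-fold change, 1 member was lower in D62A (EXPA2), 6 in ZhenShan97A (EXPB9 besides the 5), 4 in XQZ-A (EXPA4 and EXPA7 besides the 2) and 4 in the CMS mean (EXPA4 besides the 3), where 1.54%, 1.87%, 3.18% and 2.19% of all probes were. At that limit EXPA18 was the only member higher, in ZhenShan97A, while 0.465% of all probes were higher in D62A, 2.39% in ZhenShan97A, 0.823% in XQZ-A and 0.862% in the CMS mean. The calls rest on the replicate block and on the filter for dim probes together, since limma without the block or without the filter called 0 members in every comparison. Without either ZhenShan97A array, either XQZ-A array or replicate 2 of Meixiang B, 0 members were called as well, and without replicate 1 of Meixiang B only EXPA5 in ZhenShan97A was.

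EXPA5 (LOC4330706) had intensities of 34.2 and 87.5 in D62A, 19.98 and 48.1 in ZhenShan97A and 23.9 and 51.9 in XQZ-A, against 83.5 and 133 in Meixiang B (replicates 1 and 2). On both replicate numbers all CMS arrays lay below the Meixiang B array, with ZhenShan97A lowest, while replicate 2 of D62A lay above replicate 1 of Meixiang B. The log2 fold change was -1.76 in ZhenShan97A (SE 0.19, adjusted p = 0.00553), -1.58 in XQZ-A (SE 0.19, adjusted p = 0.00545) and -0.95 in D62A (SE 0.19, adjusted p = 0.0465), which missed the threshold. In the CMS mean EXPA5 fell by 1.43 on the log2 scale, a 2.69-fold decrease (SE 0.15, adjusted p = 0.00372). Among arrays of replicate 1 the difference was -1.72 and among those of replicate 2 -1.14.

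EXPA2 (LOC4327568) was measured at 19.9 and 38.1 in D62A, 13.1 and 41.4 in ZhenShan97A and 10.8 and 35.3 in XQZ-A, against 37.1 and 83.8 in Meixiang B. Each CMS line was below Meixiang B on arrays of the same replicate number, and on the arrays of replicate 1 D62A lay above ZhenShan97A and XQZ-A. Its log2 fold change was -1.12 in ZhenShan97A (SE 0.15, adjusted p = 0.00872) and -1.23 in XQZ-A (SE 0.15, adjusted p = 0.00553). For D62A it was -1.02 (SE 0.15, adjusted p = 0.0220), past 2-fold but not past the p threshold. The CMS mean fell by 1.12, a 2.18-fold decrease (SE 0.12, adjusted p = 0.00372). Replicate 1 of ZhenShan97A and of XQZ-A lay under 16, where the floor shortens the difference, and without the floor the mean was -1.22.

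For EXPA7 (LOC4334606), a gene linked to salt tolerance in rice, the arrays read 62.9 and 130 in D62A, 27.4 and 81.3 in ZhenShan97A and 44.4 and 101 in XQZ-A, against 84.4 and 215 in Meixiang B. The order of the lines was the same on both replicate numbers, with ZhenShan97A lowest, then XQZ-A, then D62A, then Meixiang B. The fold change was -1.51 in ZhenShan97A (SE 0.16, adjusted p = 0.00553), -1.01 in XQZ-A (SE 0.16, adjusted p = 0.0138) and -0.58 in D62A (SE 0.16, adjusted p = 0.101), on the log2 scale. In the CMS mean it fell by 1.03, which is 2.05-fold (SE 0.13, adjusted p = 0.00677).

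EXPA4 (LOC4339106), whose activity has been tied to plant height in rice, gave 177 and 286 in D62A, 99.9 and 87.3 in ZhenShan97A and 118 and 145 in XQZ-A, against 279 and 315 in Meixiang B. ZhenShan97A and XQZ-A lay below both Meixiang B arrays on all of their arrays, and replicate 2 of D62A lay between the 2 Meixiang B arrays. Only ZhenShan97A was called, at -1.67 on the log2 scale, a 3.18-fold decrease (SE 0.21, adjusted p = 0.00802). The fold change was -1.18 in XQZ-A (SE 0.21, adjusted p = 0.0203) and -0.40 in D62A (SE 0.21, adjusted p = 0.346). The CMS mean was -1.08 and just missed the threshold (SE 0.17, adjusted p = 0.0127).

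**Figure D1:**
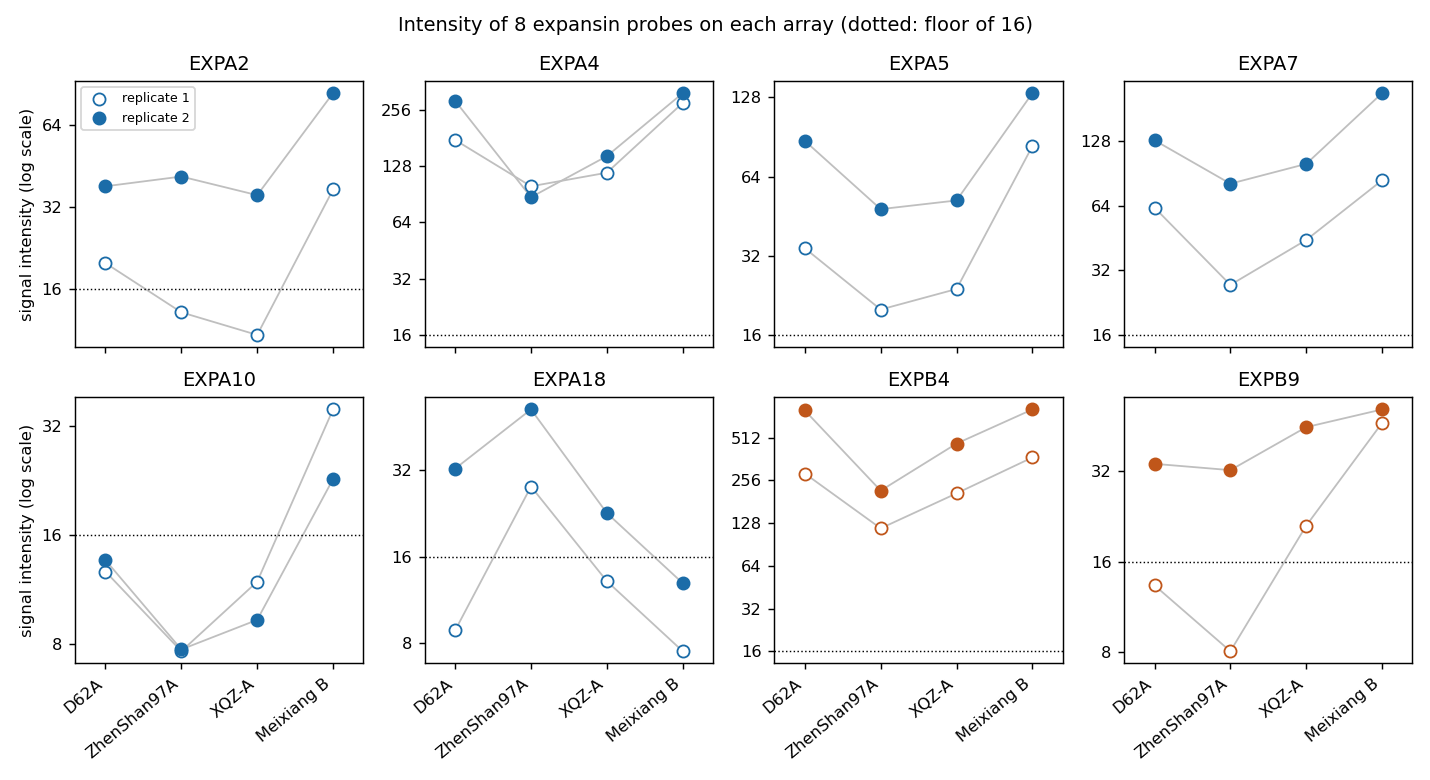
Signal intensity (log scale) of 8 expansin probes on each of the 8 arrays, by line, with open circles for replicate 1, filled circles for replicate 2, grey lines joining arrays of 1 replicate number and a dotted line at the floor of 16. EXPA5 lies between 19.98 and 87.5 on the CMS arrays, against 83.5 and 133 in Meixiang B, and EXPA18 is the panel in which Meixiang B is lowest.

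EXPA10 and EXPA18 stood apart from these 4, because the floor of 16 sets part of their values. EXPA10 (LOC4336776), known in rice as an aluminium-induced expansin, had 12.7 and 13.7 in D62A, 7.66 and 7.74 in ZhenShan97A and 11.9 and 9.35 in XQZ-A, against 35.6 and 22.9 in Meixiang B. All 6 CMS arrays were under 16 and both Meixiang B arrays above it, so this probe passed the filter through Meixiang B alone. Its fold change in the CMS mean was -0.84 with the floor (SE 0.16, adjusted p = 0.0211) and -1.39 without it (adjusted p = 0.00306).

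EXPA18 (LOC4331666) was the alpha-expansin furthest above Meixiang B. It had 8.86 and 32.4 in D62A, 28.1 and 52.0 in ZhenShan97A and 13.1 and 22.7 in XQZ-A, against 7.50 and 12.9 in Meixiang B. Every CMS array exceeded the Meixiang B array of its replicate number, and both Meixiang B arrays were under 16. Its mean of 10.2 in Meixiang B lay below the lowest mean past the filter, 14.89, so this probe passed the filter through the CMS lines alone. In ZhenShan97A the log2 fold change was 1.26 with the floor (SE 0.24, adjusted p = 0.0237) and 1.85 without it (adjusted p = 0.00797). D62A stood at 0.51 (SE 0.24, adjusted p = 0.302) and XQZ-A at 0.25 (SE 0.24, adjusted p = 0.650), and the CMS mean at 0.67 (SE 0.20, adjusted p = 0.0795).

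The remaining 7 fitted alpha-expansins were not called in any comparison. In the CMS mean they ran between -0.39 for EXPA1 (SE 0.18, adjusted p = 0.228) and 0.12 for EXPA21 (SE 0.15, adjusted p = 0.678). EXPA8, a gene of root growth in rice, was at 0.02 (SE 0.16), EXPA28 at 0.08 (SE 0.11) and EXPA6 at -0.04 (SE 0.25). EXPA6 exceeded 16 on all 8 arrays, between 18.3 and 81.0, and its position changed with the replicate number: the CMS mean was 0.20 above Meixiang B on the arrays of replicate 1 and at -0.28 on those of replicate 2. EXPA12 behaved likewise, at 0.06 and -0.68. For EXPA1, EXPA11, EXPA21 and EXPA28 every array of replicate 1 was under 16, so their differences come from the arrays of replicate 2 alone. EXPA1 had 30.5 in D62A, 30.1 in ZhenShan97A and 34.5 in XQZ-A, against 54.6 in Meixiang B on those arrays.

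**Figure D2:**
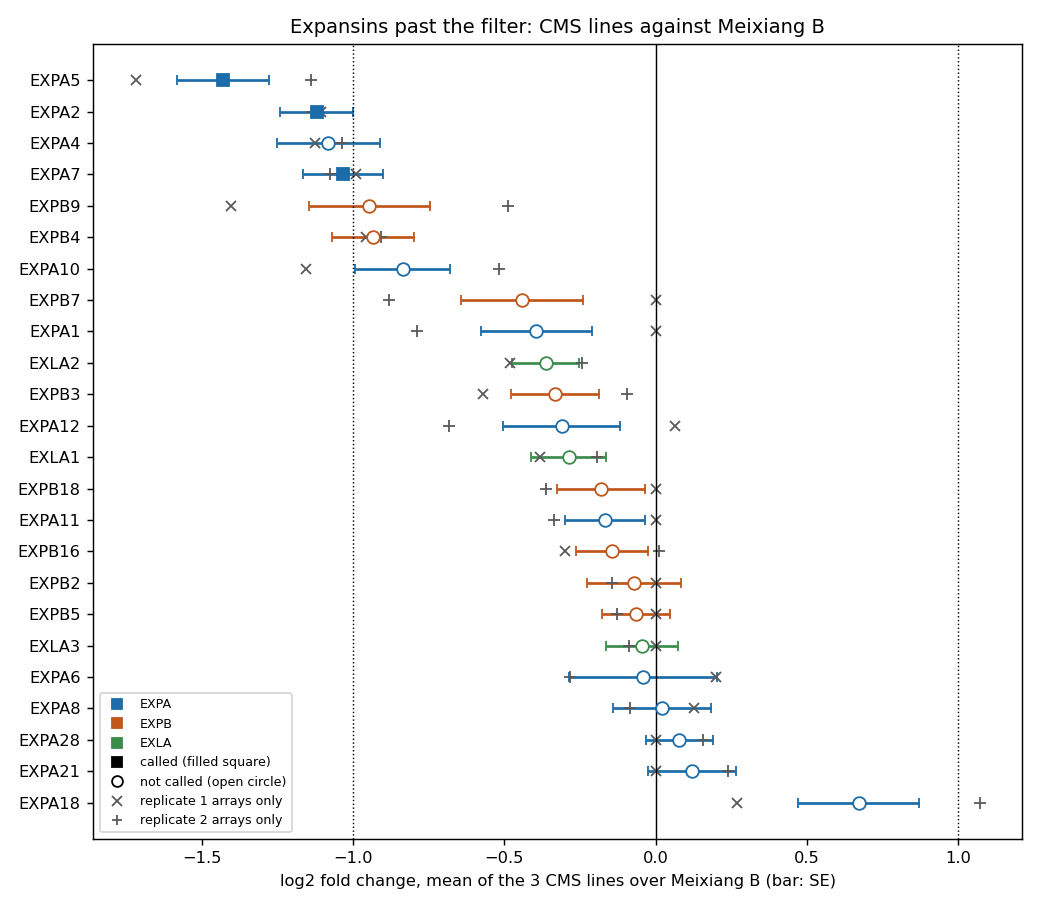
Log2 fold change of the mean of the 3 CMS lines over Meixiang B for the 24 expansins that entered the fit, with SE bars, filled squares for called members, open circles for the others, and the same difference on the arrays of replicate 1 (x) and replicate 2 (+) alone. EXPA5 (-1.43), EXPA2 (-1.12) and EXPA7 (-1.03) are filled and lie beyond the dotted line of a 2-fold decrease, EXPA4 (-1.08) lies beyond it uncalled, and EXPA18 (0.67) is furthest to the right.

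Beta-expansins showed 1 call. EXPB4 (LOC4349350), a vegetative beta-expansin that in deepwater rice has been associated with elongating internodes, fell in ZhenShan97A. Its intensities were 286 and 794 in D62A, 117 and 217 in ZhenShan97A and 207 and 465 in XQZ-A, against 371 and 808 in Meixiang B. Replicate 2 of D62A nearly equalled that of Meixiang B, and ZhenShan97A lay lowest on both replicate numbers. The log2 fold change was -1.78 in ZhenShan97A, a 3.43-fold decrease (SE 0.17, adjusted p = 0.00502). It was -0.82 in XQZ-A (SE 0.17, adjusted p = 0.0312) and -0.20 in D62A (SE 0.17, adjusted p = 0.580). In the CMS mean the value of -0.93 passed the p threshold but not the 2-fold limit (SE 0.14, adjusted p = 0.00997).

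EXPB9 (LOC4349301), of the pollen allergen group, was not called in any line, although its CMS arrays all lay below both Meixiang B arrays. It had 13.4 and 33.9 in D62A, 8.07 and 32.3 in ZhenShan97A and 21.1 and 44.9 in XQZ-A, against 46.4 and 51.5 in Meixiang B. The lines differed more on the arrays of replicate 1, where the CMS mean was at -1.40, than on those of replicate 2, at -0.49. The log2 fold change was -1.10 in ZhenShan97A (SE 0.24, adjusted p = 0.0331), -1.07 in D62A (SE 0.24, adjusted p = 0.0651) and -0.67 in XQZ-A (SE 0.24, adjusted p = 0.169), and -0.95 in the mean (SE 0.20, adjusted p = 0.0307). Replicate 1 of D62A and of ZhenShan97A lay under 16. Without the floor ZhenShan97A was at -1.52 (adjusted p = 0.0302) and the mean at -1.11 (adjusted p = 0.0455), also not called. EXPB10 (LOC4331325), the other measured gene of that group, was too dim for the fit. It had 6.11 and 13.6 in D62A, 4.75 and 14.7 in ZhenShan97A and 5.16 and 17.1 in XQZ-A, against 5.58 and 15.7 in Meixiang B. A single array, XQZ-A replicate 2, exceeded 16, and the groups overlapped.

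The other beta-expansins described in full were EXPB7 and EXPB3. EXPB7 (LOC4331300) gave 6.18 and 19.8 in D62A, 7.63 and 21.0 in ZhenShan97A and 9.84 and 25.1 in XQZ-A, against 13.4 and 40.2 in Meixiang B. All CMS arrays lay below the Meixiang B array of the same replicate number, but every array of replicate 1 was under 16, and the CMS mean was at -0.44 (SE 0.20, adjusted p = 0.224). Without the floor the CMS mean was -0.78 (limma, adjusted p = 0.00815), past the p threshold but not the 2-fold limit. EXPB3 (LOC4349349), another gene tied to internode growth in deepwater rice, gave 24.0 and 45.7 in D62A, 21.4 and 31.1 in ZhenShan97A and 12.0 and 27.3 in XQZ-A, against 30.0 and 36.2 in Meixiang B. Here the groups overlapped, XQZ-A was lowest on both replicate numbers at -0.66 (SE 0.18, adjusted p = 0.0802), and D62A lay at 0.01 (SE 0.18, adjusted p = 0.989). For EXPB2, EXPB5, EXPB16 and EXPB18 the CMS mean was between -0.18 and -0.06, with adjusted p from 0.510 to 0.831.

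The beta-expansins EXPB6, EXPB2, EXPB3 and EXPB4 follow each other in the annotation with 0 genes between them. In ZhenShan97A EXPB4 fell, at -1.78. EXPB3 was at -0.35 (SE 0.18, adjusted p = 0.255) and EXPB2 at -0.24 (SE 0.19, adjusted p = 0.456) in that line. EXPB6 was under 16 on all 8 arrays and EXPB2 on all arrays of replicate 1, where no decrease could have been seen. EXPA12 and EXPA18 belong to a run of adjacent alpha-expansins with EXPA25 and EXPA15 between them, and in ZhenShan97A EXPA12 was at -0.61 (SE 0.24, adjusted p = 0.141) and EXPA18 at 1.26. Differences between these neighbours were not tested.

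The expansin-like genes were not called in any comparison. EXLA1 (LOC4331516) had 154 and 327 in D62A, 227 and 369 in ZhenShan97A and 222 and 374 in XQZ-A, against 258 and 407 in Meixiang B. Each CMS array was below the Meixiang B array of its replicate number, D62A most, at -0.53 (SE 0.15, adjusted p = 0.108), and the CMS mean was -0.29 (SE 0.12, adjusted p = 0.195). EXLA2 (LOC4349265) had 221 and 580 in D62A, 266 and 657 in ZhenShan97A and 178 and 428 in XQZ-A, against 306 and 647 in Meixiang B. XQZ-A was lowest on both replicate numbers, at -0.69 (SE 0.14, adjusted p = 0.0289), while ZhenShan97A stood at -0.09 (SE 0.14, adjusted p = 0.694) and the CMS mean at -0.36 (SE 0.11, adjusted p = 0.0854). EXLA3 (LOC4343213) gave 5.61 and 25.4 in D62A, 6.18 and 20.5 in ZhenShan97A and 6.98 and 26.5 in XQZ-A, against 6.31 and 25.5 in Meixiang B, and the groups overlapped (CMS mean -0.04, SE 0.12, adjusted p = 0.865). EXLB1 was under 16 on all 8 arrays, between 4.58 and 9.57.

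**Figure D3:**
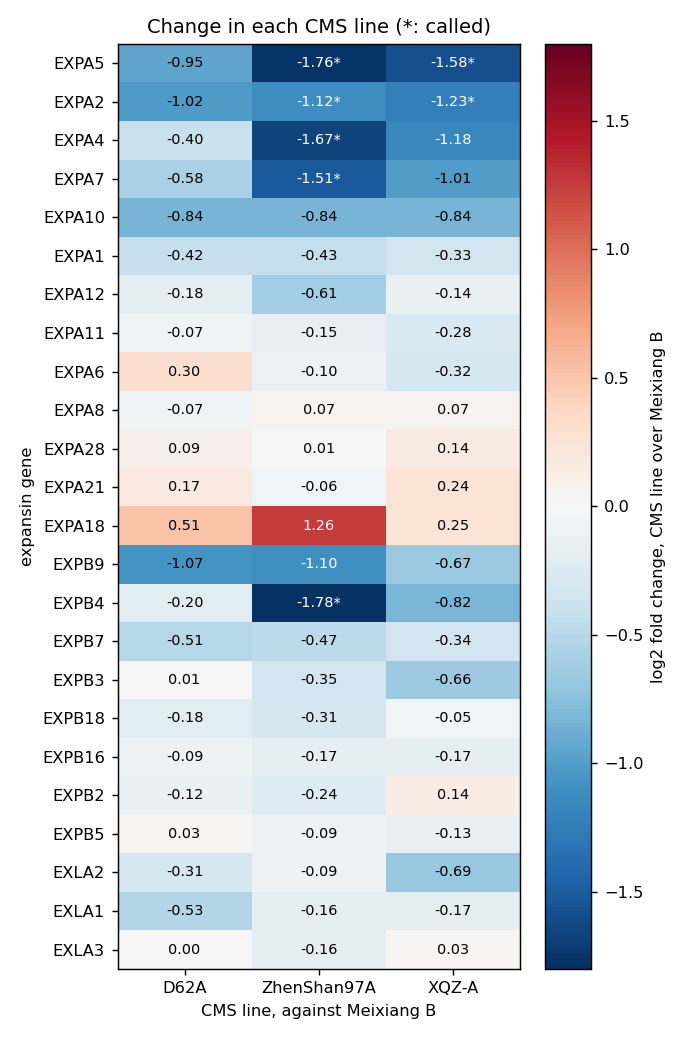
Log2 fold change of each CMS line (columns) over Meixiang B for the 24 fitted expansins (rows, by subfamily), printed in each cell and coloured from blue (lower in the CMS line) to red (higher), with an asterisk on called values. The asterisks stand on 5 genes in ZhenShan97A and 2 in XQZ-A, and the D62A column has none.

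As a description of the 24 fitted members, the median log2 fold change was -0.18 in D62A, -0.27 in ZhenShan97A, -0.30 in XQZ-A and -0.30 in the CMS mean, beside 0.00, -0.01, 0.02 and 0.01 over all fitted probes. In the mean, 20 of 24 members (83.3%) were below 0, against 48.7% of all fitted probes. All 6 CMS arrays lay below the Meixiang B array of the same replicate number in 11 of 24 members, against 13.2% of all fitted probes. They lay below both Meixiang B arrays in 2 members, EXPA10 and EXPB9, against 3.78%. The filter acts on the mean of all arrays, and EXPA10 (mean of 10.5 on the CMS arrays, 29.3 on those of Meixiang B) and EXPB18 (14.8 and 18.5) passed it only through Meixiang B. EXPA18, with a mean of 10.2 on the Meixiang B arrays, passed it only through the CMS lines. None of the medians and counts over the fitted members is therefore offered as support for a shift of the family.

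Of the 14 members that did not enter the fit, 9 were alpha-expansins (EXPA3, EXPA13, EXPA14, EXPA16, EXPA22, EXPA26, EXPA31, EXPA32 and EXPA33), 4 were beta-expansins (EXPB6, EXPB8, EXPB10 and EXPB14) and the last was EXLB1. Their intensities ran between 2.69 (EXPA31) and 27.4 (EXPB14, replicate 2 of Meixiang B). On the arrays of replicate 1 all of them were under 16 in every line. With the floor, the CMS mean differed from Meixiang B by -0.11 (EXPB14) to 0.07 (EXPB8) on the log2 scale. No change was detectable in these genes at this signal, which does not show that there was none.

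The CMS lines were next compared with each other, a comparison in which the Meixiang B arrays enter only the filter for dim probes and the estimate of spread. Limma called 0 members both in ZhenShan97A against the mean of D62A and XQZ-A and in D62A against XQZ-A, and 0.0% of all probes in each direction. At an adjusted p under 0.05 with a 2-fold change, EXPB4 was lower in ZhenShan97A than in the other CMS lines (0.0686% of all probes lower, 0.96% higher), and 0 members separated D62A from XQZ-A (0.0245% lower, 0.0294% higher). At an unadjusted p under 0.05, ZhenShan97A had 4 members lower and 2 higher than the other CMS lines (6.08% and 15.5% of all fitted probes), and D62A had 1 lower and 6 higher than XQZ-A (4.36% and 9.28% of all fitted probes). EXPB4 showed the largest difference, at -1.27 for ZhenShan97A against the other CMS lines (SE 0.14, adjusted p = 0.0197), with -1.05 on the arrays of replicate 1 and -1.49 on those of replicate 2. EXPA7 was at -0.72 (SE 0.14, adjusted p = 0.0460), EXPA4 was at -0.88 (SE 0.18, adjusted p = 0.0529) and EXPA5 at -0.50 (SE 0.16, adjusted p = 0.136). EXPA18 (0.88, SE 0.21, adjusted p = 0.0736) and EXLA2 (0.41, SE 0.12, adjusted p = 0.106) were the 2 on the higher side.

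D62A lay above XQZ-A by 0.78 in EXPA4 (SE 0.21, adjusted p = 0.184), 0.66 in EXPB3 (SE 0.18, adjusted p = 0.186), 0.63 in EXPA5 (SE 0.19, adjusted p = 0.215) and 0.62 in EXPB4 (SE 0.17, adjusted p = 0.184) on the log2 scale. EXPA2 was at 0.01 for ZhenShan97A against the other CMS lines (SE 0.13) and at 0.21 for D62A against XQZ-A (SE 0.15, adjusted p = 0.606), the last rising to 0.46 without the floor. None of these passed the threshold. ZhenShan97A was not tested against D62A alone. Calls made in ZhenShan97A and not in D62A, such as those of EXPA4, EXPA7 and EXPB4, therefore do not by themselves show whether these lines differ. If the names of D62A and XQZ-A are exchanged, the signs of D62A against XQZ-A turn round, and the values for ZhenShan97A stay as they are.

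**Figure D4:**
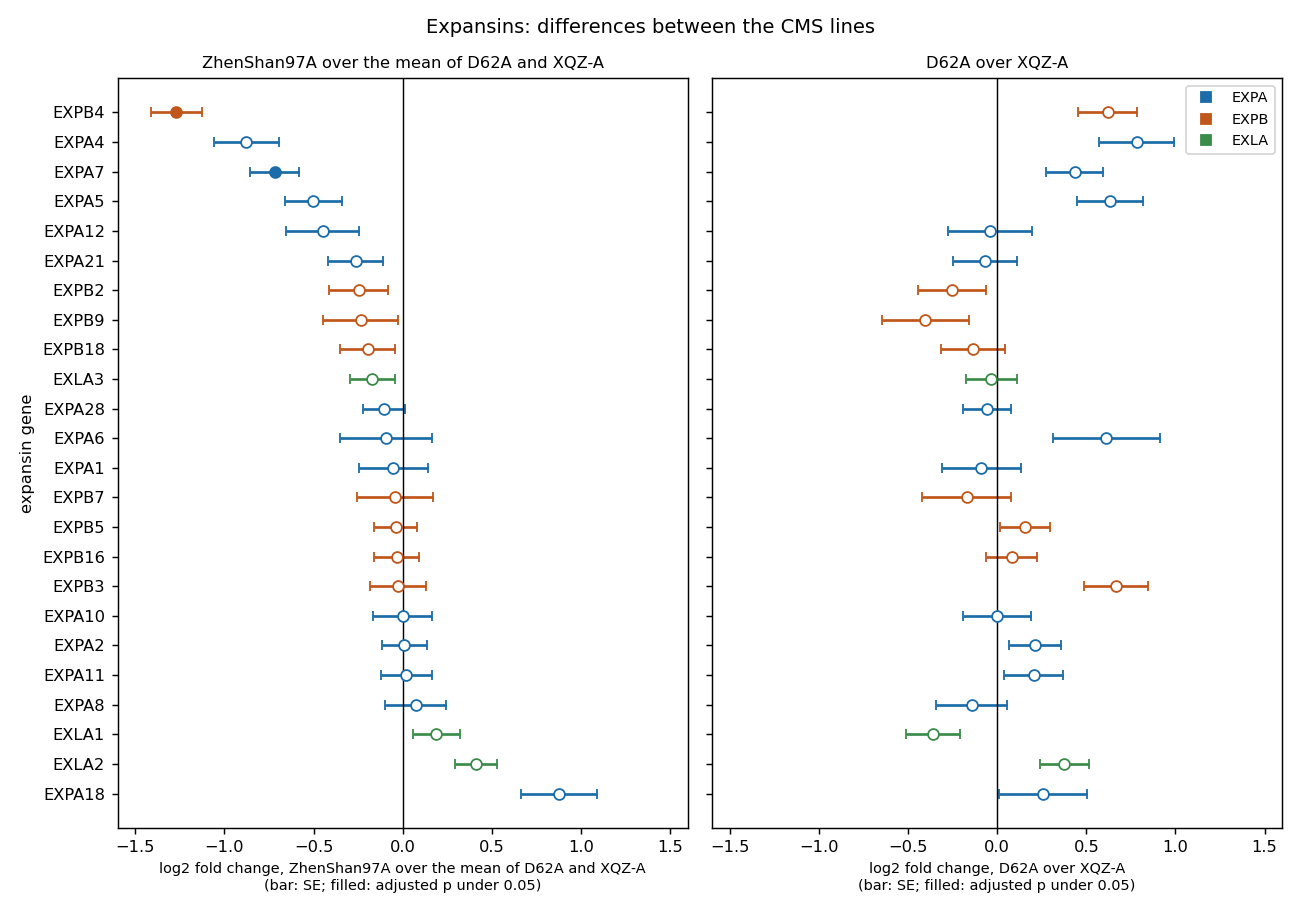
Log2 fold changes (points) with SE bars for the 24 fitted expansins, for ZhenShan97A over the mean of D62A and XQZ-A (left) and for D62A over XQZ-A (right), coloured by subfamily, with filled points at an adjusted p under 0.05. EXPB4 (-1.27) and EXPA7 (-0.72) are filled in the left panel, and no point is filled in the right one.

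Other gene families of wall growth were read on the same arrays. In the CMS mean, 1 of 3 fitted COBRA-like genes fell, namely BC1L9 at -1.91 (SE 0.13, adjusted p = 0.00147), and 1 of 5 fitted endo-1,4-beta-glucanases, GLU15 at -2.81 (SE 0.25, adjusted p = 0.00253). Of all fitted probes, 1.43% were called lower there. The lowest intensity of GLU15, 4.82, was under 16, where the floor shortens differences. Most other members of these lists lay above 0: the medians were 0.05 and 0.10, and 1 of 3 and 2 of 5 members were below 0. BC1L6 was at 0.66 (SE 0.18, adjusted p = 0.0644). COBRA-like proteins take part in cellulose deposition and the glucanases cut cellulose-type chains. Limma called 0 of 6 fitted cellulose synthases in the CMS mean (CESA6 alone was past an unadjusted p of 0.05). CESA6 fell in XQZ-A by 1.15 (SE 0.14, adjusted p = 0.00630), where 1.75% of all fitted probes were called lower. The single fitted xyloglucan endotransglucosylase/hydrolase, XTH8, a type of enzyme that cuts and rejoins xyloglucan, was at 0.05 (SE 0.15, adjusted p = 0.888). None of these genes was called higher in any CMS line, where 0.0% (D62A), 0.852% (ZhenShan97A) and 0.309% (XQZ-A) of all fitted probes were.

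Markers of cell types were read beside the expansins. Of 16 tapetum and microspore markers, 12 had a probe, 8 were fitted, 2 (UDT1 and PAIR1) were under 16 on all arrays, and 2 fell in the CMS mean: OSC6, a lipid transfer protein of the tapetum, at -4.20 (SE 0.29, adjusted p = 0.00147), and C4 at -3.07 (SE 0.18, adjusted p = 0.00138). The other 6 fitted markers were not called, with adjusted p from 0.163 to 0.735. RAFTIN1 was at -0.92 (SE 0.36), TDR at -0.82 (SE 0.33) and MSP1 at -0.68 (SE 0.28). Their lowest intensities, 3.11, 3.38 and 8.21, were under 16, where the floor shortens differences. MTR1 was at -0.35 (SE 0.14), MEL1 at -0.13 (SE 0.19) and GAMYB at 0.12 (SE 0.13). In all, 7 of the 8 fitted markers were below 0 in the CMS mean, against 48.7% of all fitted probes. The 2 markers called lower stand beside 1.43% of all fitted probes. Whether some of these markers passed the filter only through Meixiang B was not examined, so the count is not offered as support for a shift. The summed intensity of the 12 markers, carried largely by OSC6 (20.8 to 2063) and C4 (33.7 to 1263), was 396.3 to 549.6 in the CMS lines against 1545 in Meixiang B on the arrays of replicate 1, and 592.4 to 955.4 against 3971 on those of replicate 2. For the 9 of 12 floral organ markers with a probe, the sums were 1325 to 1691 against 1962 and 1943 to 2767 against 2772. All 9 were fitted, 7 of them were below 0 in the CMS mean, and MADS16 was called lower there, beside the same shares of all fitted probes. In XQZ-A, DL was called lower at -1.11 (SE 0.14, adjusted p = 0.0063) and MADS16 at -1.18 (SE 0.16, adjusted p = 0.00894), where 1.75% of all fitted probes were. For the 5 of 7 green tissue markers with a probe, the sums were 72.7 to 73.15 against 76.8 and 208.8 to 239.4 against 240.9. The 2 fitted markers were both below 0 in the CMS mean, and 0 of 2 were called (0 also at an unadjusted p under 0.05). The part of these cell types in the expansin values was not tested.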

How the data were processed

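RNA of D62A, ZhenShan97A, XQZ-A and Meixiang B was measured on 8 arrays, 2 per line. The deposited values are linear signal intensities made by the authors; the labels name MAS5 (version not given in the sources used here) and the methods describe Robust Multichip Analysis followed by a log transform. A second deposited table differs from it in 98 additional control probe sets and in no value (largest difference 0). No normalization was added, so brightness differences between replicate numbers remain, and the block takes up only an additive shift on the log2 scale. Where every array of replicate 1 was under 16, replicate 1 gave a difference of 0 and the fold change was shortened. For EXPB7 in the CMS mean, 0 and -0.88 on the 2 replicate numbers gave -0.44. Precision is limited by the number of arrays.

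Intensities under 16 were set to 16 and converted to log2. Limma 3.58.1 in R 4.3.3 was fitted with a coefficient per line and the replicate number as a block to the 20416 of 40832 probes with the higher mean (lowest mean 14.89), which left 3 residual and 3.96 prior degrees of freedom. The replicate numbers come from the titles, and the block on them follows an earlier account of these data. Deviations of replicate 2 from replicate 1 correlated by 0.738 to 0.846 across 25481 probes in 6 of 6 pairs of lines. These deviations were taken after the floor, and all arrays of replicate 1 were dimmer. The correlation therefore cannot show by itself that the arrays were paired. P-values were adjusted over all fitted probes. The thresholds are those of the methods. Probes were tied to genes through the platform annotation and RefSeq (ASM3414082v1); 15295 probes lay in 1 gene, 436 in several and 25101 in none, and the last 2 kinds were not named.

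Members, gene lists, the block and the filter were chosen with earlier results of these data known. Values on every array are given for members called in any comparison, for the 4 members of each subfamily furthest from 0 in the mean of the 3 CMS lines against Meixiang B, and for pollen-type beta-expansins; EXPA10 and EXPA18 were added after their values were seen. The fit was tested on simulated data in which only bright probes were given a change, so that test does not cover members near the floor. Alternatives were the fit without the block, without the filter or without both, quantile normalization, no floor with 1 added, a mean-variance trend, an adjusted p of 0.05, the t-test that the methods name, any probe of a gene, and leaving out each array. Each member had 1 probe, so taking any probe of a gene could change nothing. Tables and figures were made in Python 3.11.15 (pandas 2.3.3, numpy 2.4.6, matplotlib 3.10.9).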

Additional observations from a re-analysis of the deposited data

Results flagged for a closer look

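EXPB4 and EXPA7 reached an adjusted p under 0.05 when limma tested the difference between ZhenShan97A and the other CMS lines itself, and neither reached the threshold of 0.01 used for calls. EXPB4 was lower in ZhenShan97A than in the mean of D62A and XQZ-A by a log2 value of -1.27 (SE 0.14, adjusted p = 0.0197), with intensities of 117 and 217 in ZhenShan97A against 286 and 794 in D62A and 207 and 465 in XQZ-A. EXPA7 was lower by -0.719 (SE 0.14, adjusted p = 0.0460), with 27.4 and 81.3 in ZhenShan97A against 62.9 and 130 in D62A and 44.4 and 101 in XQZ-A. EXPA7 was also under 2-fold, and leaving out any 1 array put it past 0.05. Without the replicate block the adjusted p was 1.0 for both, without the filter it was 0.208 for EXPB4 and 0.309 for EXPA7, and leaving out single arrays gave 0.0109 to 0.224 for EXPB4 and 0.0510 to 0.230 for EXPA7.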

How the results depend on the processing

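Of 160 values that 16 alternatives gave for the 10 called expansin values, 53 were still called and 107 were not. Of 2144 values for the expansin comparisons not called in the main fit, 16 became called. The alternative of an adjusted p under 0.05 uses the same fit, so it keeps all 10 calls by construction and gave part of the 16. No replicate block gave 0 expansins called in ZhenShan97A, XQZ-A and the CMS mean, against 5, 2 and 3 with the block (5, 2 and 3 at an unadjusted p under 0.05), and limma without the block called 0 of all probes in the mean against 367. The replicate block without the filter on dim probes gave 0 in each (8, 8 and 8 unadjusted), neither block nor filter 0 in each (2, 2 and 2 unadjusted), and the methods' t-test 0 in each (1, 1 and 1 unadjusted). Quantile normalization gave 2 in ZhenShan97A (EXPA5 and EXPB4), 1 in XQZ-A (EXPA5) and 1 in the mean (EXPA5). No floor gave 5 in the mean, EXPA4 and EXPA10 besides the 3, and 3 in XQZ-A, EXPA10 besides the 2. It gave 6 in ZhenShan97A, where EXPA10 was newly called lower, EXPA18 newly called higher and EXPA2 no longer called (adjusted p = 0.0126). That no member was called higher thus depends on the floor. EXPA10 had passed the filter only through Meixiang B and EXPA18 only through the CMS lines. An adjusted p under 0.05 gave 1 in D62A (EXPA2), 4 in XQZ-A (EXPA2, EXPA4, EXPA5 and EXPA7) and 1 in ZhenShan97A against the other CMS lines (EXPB4). The cause of these shifts was not tested. Leaving out 1 array gave 0 to 5 expansins in ZhenShan97A, 0 to 3 in XQZ-A, 0 to 4 in the mean and 0 in the other comparisons. Of all probes, leaving out 1 array called 0 to 148 in D62A (6 with all arrays, 139 with no floor), 0 to 404 in the mean, 0 to 345 in ZhenShan97A (333 with all arrays) and 0 to 498 in XQZ-A (421 with all arrays). Signal limits the dim members: 14 of 38 could not be fitted, and on the arrays of replicate 1 differences under an intensity of 16 are lost to the floor.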
